A study of Callithrix jacchus with 6 samples.

Results

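Of the 32323 genes listed for marmoset hepatic progenitor cells (MHPCs) and adult marmoset liver, 192 were among the most abundant of both. A gene was counted here if it ranked 500 or better by its mean FPKM over the 3 MHPC libraries and also 500 or better by its mean FPKM over the 3 adult liver libraries, where FPKM is the number of reads per kilobase of gene and per 1000000 library reads. Another 308 genes ranked 500 or better in MHPCs only, and 308 in adult liver only. The 192 genes were thus selected on the measured levels of both groups, so their high levels are the rule itself. The differences of these genes between MHPCs and liver are given as a description. Calls of limma, fitted over all genes, are counted for the members and their lists, but they are no independent evidence for genes selected on the same values, and no *P*-value of a single member is given.

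MHPCs are 1 clone grown from the fetal liver of the common marmoset (*Callithrix jacchus*) and immortalized with a lentivirus carrying the simian virus large T antigen. Their 3 libraries were made at passages that the labels place between 15 and 30, so that the spread of MHPC libraries covers passages of 1 clone and no other animals. The 3 adult livers came from separate animals with a labelled age of 5 to 10 years and carried no large T antigen. The study's methods name passages and ages that fall partly outside these labelled ranges, and the disagreement could not be settled here. Which library belongs to which passage, age, or animal is not given, and the libraries carry the numbers of their labels. The libraries held 6501285 to 9682046 reads, as recovered from the FPKM values. The livers carried the markers of hepatocytes, with *ALB*, which encodes serum albumin, at 13225 to 52746 FPKM. In the MHPC libraries *ALB* was at 2.06 to 2.39 FPKM, whereas *TF*, the plasma iron carrier transferrin of the same marker list, was at 124.3 to 133.5 FPKM there and at 2100 to 5614 FPKM in the livers. In MHPCs *EPCAM*, an epithelial surface protein used as a marker of progenitor and bile duct cells, was listed at 0, 0, and 0.479 FPKM. *KRT7*, a keratin of bile duct cells, was at 27.8 to 39.7 FPKM in MHPCs and at 8.18 to 20.7 FPKM in the livers. *COL1A1*, a collagen chain typical of fibroblasts and stellate cells, was at 1257 to 1800 FPKM in the MHPC libraries and at 10.4 to 34.4 FPKM in the livers, whereas *DCN*, a matrix proteoglycan of the same marker list, was at 9.65 to 41.9 FPKM in MHPCs and at 34.4 to 106.7 FPKM in the livers.

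Genes that are abundant in unrelated cells mostly serve upkeep that every cell needs. The cytosolic ribosome translates mRNA, translation factors bring in the transfer RNAs and move the ribosome along, chaperones fold the new proteins, glycolysis and the respiratory chain supply ATP, and ferritin and antioxidant enzymes keep iron and oxygen radicals in check. The adult liver also spends a large part of its mRNA on plasma proteins and metabolic enzymes.

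A symbol was known for 116 of the 192 members (60.4%), against 9360 (68.7%) of the 13620 genes tested, those with 1 FPKM or more in 3 or more libraries. All 192 members passed this filter. The largest group was that of the cytosolic ribosomal proteins, which made up 39 of the 116 named members (33.6%). Of the 46 ribosomal protein genes that could be named, 6 others ranked 500 or better in MHPCs only, none did so in liver only, and 1 was in neither ranking. There were 11 members among 42 genes of the respiratory chain and ATP synthase, 9 among 20 chaperone and protein folding genes, 6 among 11 glycolysis genes, and 5 among 12 translation factors. Iron storage and redox genes gave 5 members of 7, lysosome genes 3 of 8, secreted and matrix genes 2 of 9, cytoskeleton genes 1 of 6, and ubiquitin and proteasome genes 0 of 10. The 9 tested genes of this last list were all proteasome subunits, and the 76 members without a symbol could be placed in no list. Lists held 81 members in all, and 35 named members were in no list. Many of these families have near-identical copies in the genome, including ribosomal proteins, actins, calmodulins, and heat shock proteins, and reads could have been split among the copies, so that single values of such genes are uncertain.

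Summed over the members, FPKM values made up 22.6%, 22.2%, and 23.4% of the totals of MHPCs 1, 2, and 3. In adult livers 1, 2, and 3 they made up 13.4%, 11.7%, and 12.5%. The share was 22.7% ± 0.62 (SD, n = 3) in MHPCs and 12.5% ± 0.83 (SD, n = 3) in liver, and every MHPC library was above every liver. The genes abundant in liver only took 54.2% to 63.2% of the summed FPKM in the livers and 1.66% to 1.75% in MHPCs. Counted as shares of the recovered reads, in which long genes weigh more, the members took 14.3% ± 0.38 (SD, n = 3) in MHPCs and 8.47% ± 0.47 (SD, n = 3) in liver.

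Mean levels of the members ran from 216.9 to 4059 FPKM in MHPCs, with a median of 546.2, and from 158.9 to 5376 FPKM in liver, with a median of 296.5. The mean was higher in MHPCs for 164 members and higher in liver for 28. It was at least 2 times higher in MHPCs for 88 members, at least 2 times higher in liver for 9, and within 2-fold for 95. In the 2 rankings, 155 members stood better in MHPCs and 37 in liver. Across members, mean levels in the groups had a Spearman correlation of 0.445, a description over 192 genes whose range is cut off by the rule.

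**Figure D1:**
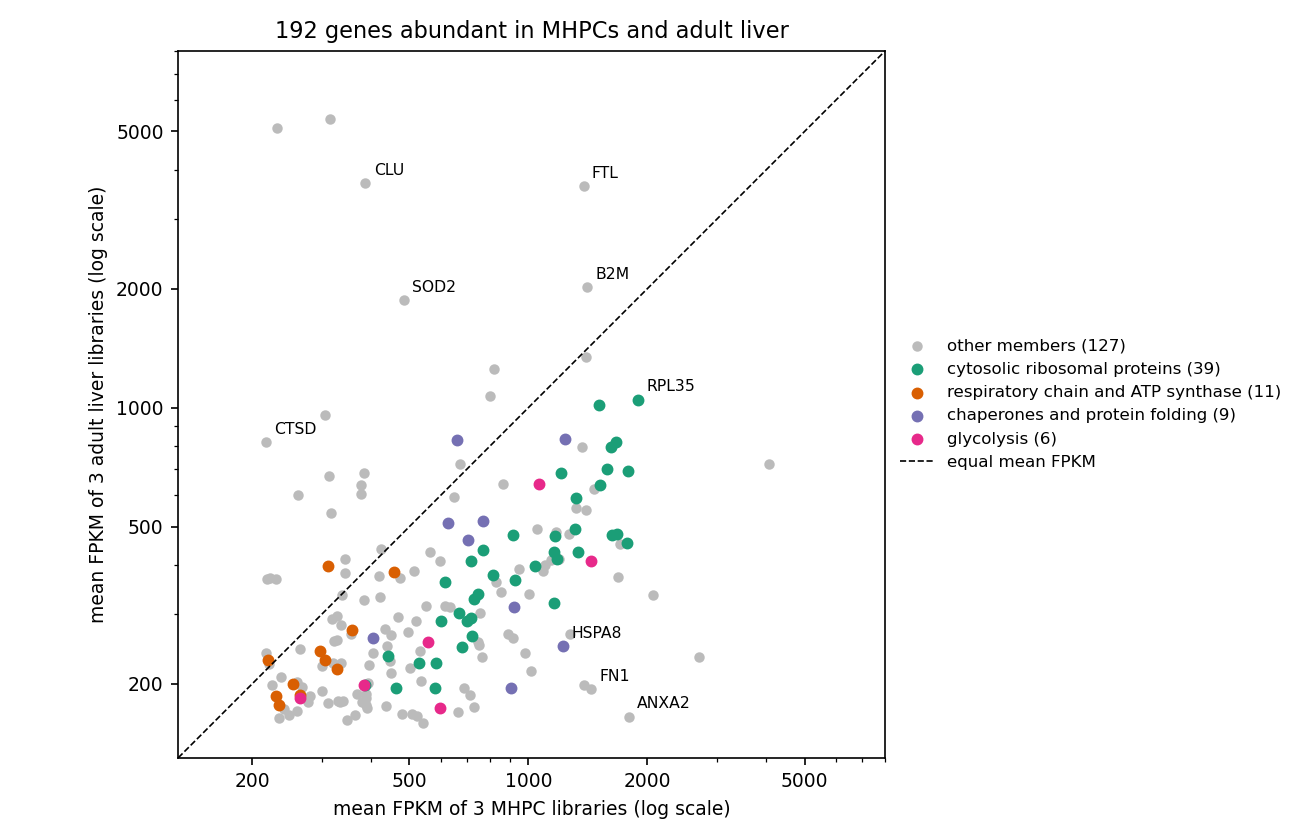
Mean FPKM of each of the 192 members in the 3 MHPC libraries (horizontal axis, log scale) and in the 3 adult livers (vertical axis, log scale); each point is a gene, colours mark 4 gene lists, and the dashed line marks equal means. Of the 192 points, 164 lie below the line, on the side of MHPCs, among them all 39 ribosomal protein genes.

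*FTL*, which encodes the light chain of the iron store ferritin, was the member whose worse rank was best, at 30 in MHPCs and 22 in liver. It measured 1337, 1392, and 1409 FPKM in MHPCs and 3628, 3412, and 3855 FPKM in adult livers 1, 2, and 3. All livers thus lay above all MHPC libraries, with a mean 2.63 times higher. *B2M*, the constant chain of class I antigen-presenting molecules, had ranks of 26 and 43. Its FPKM values were 1332, 1466, and 1432 in MHPCs and 1666, 2659, and 1732 in the livers. Liver 2 was the highest, and the groups did not overlap, but the log2 difference of *B2M*, -0.49 as deposited, turned to 0.47 with quantile normalization. The ribosomal protein genes *RPL35*, *RPS28*, and *RPL13A*, the translation factor *EEF2*, the chaperone *CALR*, and *TPT1*, a conserved protein of translation and growth control, were also among the 10 best, as were ENSCJAG00000017426 and ENSCJAG00000019089, which have no symbol here. ENSCJAG00000017426 measured 1395, 1438, and 1374 FPKM in MHPCs and 1077, 1653, and 1308 FPKM in the livers, so that the MHPC values lay inside the range of the livers.

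At the edge of the rule, the member *CTSD* ranked 500 in MHPCs and 82 in liver. *TMED2*, a carrier of proteins between the endoplasmic reticulum and the Golgi, ranked 497 and 321, and ENSCJAG00000003810 ranked 129 and 500. Just outside it, *EMC10*, a subunit of a complex that inserts membrane proteins, ranked 333 and 502. *PABPC1*, which binds the poly(A) tail of mRNA, ranked 192 and 510, and ENSCJAG00000004045 ranked 512 and 291. The mean of *PABPC1* in liver was 156.0 FPKM, beside 158.9 FPKM for the lowest member.

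The differences between the groups depended on how the libraries were scaled. In limma on log2(FPKM + 1) over the 13620 genes, with a threshold of 0.05 on the adjusted *P*-value, 65.2% of all genes were called higher in MHPCs and 15.4% lower. Of the members, 139 were called higher, 16 lower, and 37 not. Division of the values by median-of-ratios size factors, which make the typical gene equal in all libraries, changed the balance, and 29.9% of all genes were called higher and 32.1% lower. On that scale 19 members were called higher, 88 lower, and 85 not. The median log2 difference (MHPC minus liver) of the members was 0.96 as deposited, beside 1.09 for all genes tested, and -0.35 with size factors, beside -0.01 for all genes tested. Of the 192 members, 109 were higher in MHPCs as deposited and lower with size factors. Every MHPC library was above every liver for 140 members and below every liver for 19, where the shares over all genes tested were 67.2% and 16%. The rule used these same group means, and nothing is read from these counts. The calls of each list stand against the same shares of all genes tested, 65.2% higher and 15.4% lower as deposited and 29.9% and 32.1% with size factors, and no list was tested against them.

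Ribosomal protein genes lay on the side of MHPCs in the deposited values. All 39 members were called higher and the MHPC libraries were above the livers in every one, with log2 differences from 0.58 to 1.96 and a median of 1.25. With size factors the median was -0.06, and 3 were called higher, 6 lower, and 30 not. *RPL35*, a protein of the large subunit, measured 2020, 1678, and 1985 FPKM in MHPCs and 1215, 863, and 1064 FPKM in livers 1, 2, and 3. *RPS28*, of the small subunit, measured 1483, 1417, and 1619 FPKM in MHPCs and 1228, 832, and 986 FPKM in the livers. In both genes liver 2 was the lowest, and the groups did not overlap. *RPL13A* had 1675, 1605, and 1729 FPKM in MHPCs and 1023, 617, and 811 FPKM in liver, and *RPLP0*, a protein of the ribosomal stalk, had 1625, 1551, and 1671 FPKM in MHPCs and 1017, 506, and 859 FPKM in liver. The log2 differences of these 4 genes were 0.86, 0.58, 1.06, and 1.08 as deposited, and turned to -0.45, -0.73, -0.26, and -0.23 with size factors. *RPL13* had the second smallest spread among the livers of all members, with 425, 432, and 437 FPKM, and measured 1238, 1078, and 1171 FPKM in MHPCs. The 46 named ribosomal protein genes together held 6.62% to 7.27% of the summed FPKM of each MHPC library and 2.003% to 3.00% of each liver. The 1 gene outside both top 500s was *RPL3*, at ranks 2700 and 3190, which is named here because it was the single exception.

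As deposited, 4 of the 5 members of the translation factor list lay on the side of MHPCs. The exception was *TPT1*, counted in that list as a protein of translation and growth control. *EEF2*, which moves the ribosome along the mRNA, measured 1428, 1322, and 1355 FPKM in MHPCs and 887, 759, and 742 FPKM in the livers. *EEF1G* and *EEF1B2*, subunits of the complex that reloads elongation factor 1 with GTP, had means of 1006 ± 38.7 and 260.4 ± 9.2 FPKM in MHPCs and 337.2 ± 60.1 and 170.4 ± 51.4 FPKM in liver (SD, n = 3). *TPT1* was on the other side, with 786, 816, and 860 FPKM in MHPCs and 1494, 1030, and 1240 FPKM in liver. Its log2 difference of -0.60 as deposited was -1.91 with size factors. *EEF1G* was higher in MHPCs on both scales (1.59 and 0.27), whereas *EEF2* (0.78) and *EEF1B2* (0.66) turned to -0.53 and -0.66 with size factors. Of the 5 members, 4 were called higher and 1 lower as deposited, where 65.2% and 15.4% of all genes tested were, and 0 higher and 3 lower with size factors, where 29.9% and 32.1% were.

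The 11 members of the respiratory chain and ATP synthase, selected for high levels in both groups, differed by less than 2-fold in deposited FPKM. They ran from -0.34 to 0.58 in log2 difference with a median of 0.34, and 5 were called higher, 0 lower, and 6 not. The 42 tested genes of the list ran wider, from -7.17 to 0.91, and 13 were called higher and 4 lower. With size factors all 11 were called lower in MHPCs, with a median of -0.97, and so were 41 of the 42 tested genes, with a median of -1.04. *COX4I1*, a subunit of cytochrome c oxidase, measured 466, 442, and 467 FPKM in MHPCs and 446, 327, and 380 FPKM in the livers, which overlapped. *COX5B*, of the same complex, measured 317, 304, and 311 FPKM in MHPCs and 474, 356, and 362 FPKM in the livers, with all livers above. *ATP5H*, a subunit of ATP synthase, had 330, 339, and 402 FPKM in MHPCs and 308, 267, and 247 FPKM in liver, a log2 difference of 0.38 that turned to -0.93 with size factors. *NDUFB9*, a subunit of complex I, had 303, 280, and 310 FPKM and 294, 197, and 235 FPKM. No respiratory chain gene ranked 500 or better in MHPCs only, whereas 6 did so in liver only.

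All 6 glycolysis members had their MHPC libraries above all livers and were called higher as deposited, with a median of 1.08, while with size factors 1 was called higher, 2 lower, and 3 not, with a median of -0.23. *GAPDH*, often used as a reference gene, measured 1071, 1038, and 1091 FPKM in MHPCs and 703, 610, and 610 FPKM in the livers. Its log2 difference of 0.74 turned to -0.58 with size factors, so that its direction depended on the scaling. *ENO1*, the enolase of most tissues, measured 1498, 1368, and 1465 FPKM in MHPCs and 404, 414, and 410 FPKM in the livers, and was higher in MHPCs on both scales, with 1.81 and 0.50. *TPI1*, triosephosphate isomerase, had the smallest spread of all members in MHPCs, with 556, 553, and 559 FPKM, and 275, 237, and 254 FPKM in the livers. *GPI*, which forms fructose 6-phosphate, had 389, 395, and 369 FPKM in MHPCs and 301, 122, and 174 FPKM in the livers. The differences of *TPI1* and *GPI* were 1.12 and 1.04 as deposited and -0.19 and -0.27 with size factors. *ALDOA*, the aldolase of muscle and most other tissues, measured 598, 592, and 602 FPKM in MHPCs and 117, 241, and 164 FPKM in the livers.

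**Figure D2:**
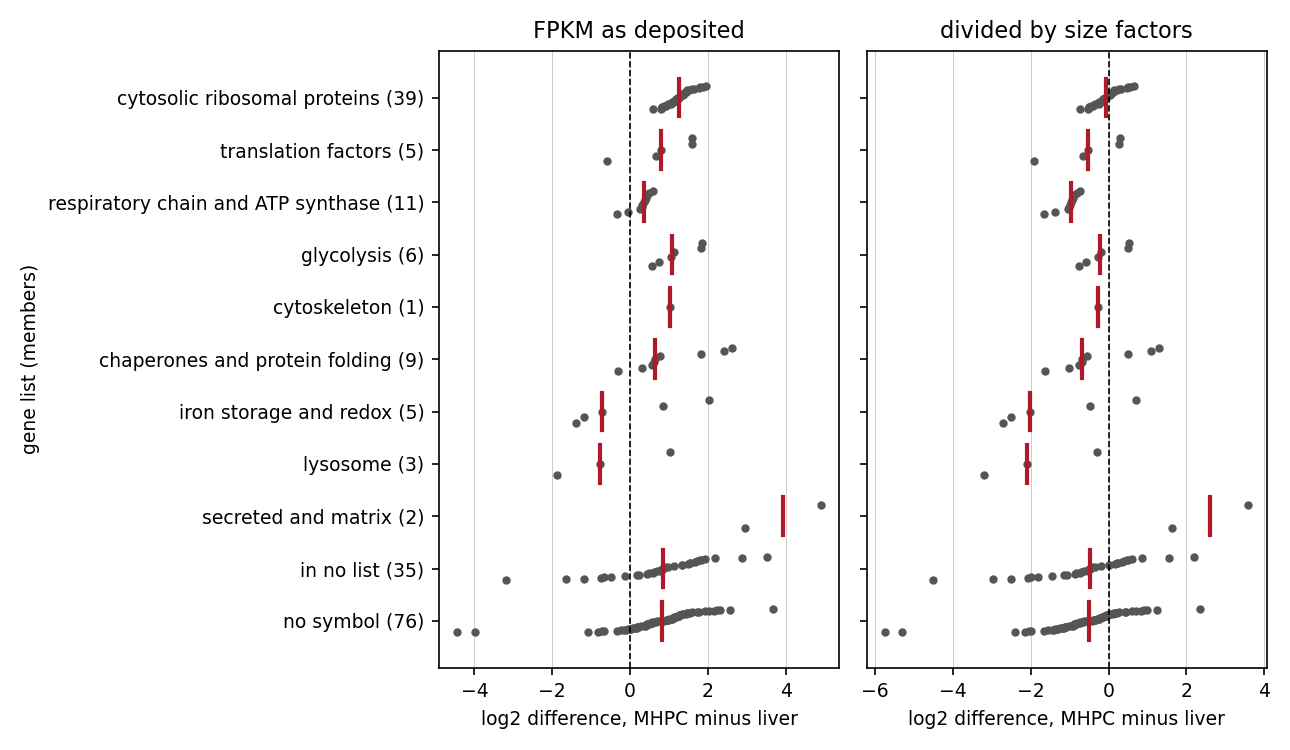
Log2 difference (MHPC minus liver, log2(FPKM + 1) scale) of each member by gene list, from FPKM as deposited (left) and after division by size factors (right); points are genes, red bars are medians, and the dashed line marks no difference. The median of the 39 ribosomal members moves from 1.25 to -0.06 and that of the 11 respiratory chain members from 0.34 to -0.97.

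Of the 9 chaperone and folding members, 6 were called higher as deposited and 0 lower, beside 65.2% and 15.4% of all genes tested, with a median of 0.64, below the 1.09 of all genes tested. With size factors 0 were called higher and 5 lower, beside 29.9% and 32.1% of all genes tested, with a median of -0.68. *CALR*, which binds calcium and folds glycoproteins, measured 1199, 1231, and 1278 FPKM in MHPCs and 848, 801, and 855 FPKM in the livers, a log2 difference of 0.57 that turned to -0.75 with size factors. *P4HB*, a protein disulfide isomerase, measured 635, 670, and 674 FPKM in MHPCs and 855, 688, and 939 FPKM in the livers, and lay lower in MHPCs on both scales. *PPIB*, a cyclophilin of the endoplasmic reticulum, had overlapping groups, with 567, 613, and 700 FPKM in MHPCs and 453, 586, and 490 FPKM in liver. *HSPA8*, the constitutive cytosolic HSP70, had the largest difference of the list. It measured 1280, 1202, and 1182 FPKM in MHPCs and 458, 80.9, and 209 FPKM in the livers, a log2 difference of 2.62 as deposited and 1.30 with size factors. Its liver values differed 5.66-fold among themselves.

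Iron, redox, and lysosome genes held several of the members that were higher in liver. *SOD1*, the cytosolic superoxide dismutase, measured 370, 351, and 408 FPKM in MHPCs and 827, 446, and 638 FPKM in the livers. *PRDX1*, a peroxiredoxin, was on the other side as deposited, with 527, 536, and 595 FPKM in MHPCs and 380, 232, and 336 FPKM in the livers, and turned from 0.83 to -0.48 with size factors. Of the 5 iron and redox members, 2 were called higher and 2 lower as deposited (65.2% and 15.4% of all genes tested), and 1 higher and 3 lower with size factors (29.9% and 32.1% of all genes tested). Among the lysosomal members, the protease *CTSD* had 219, 217, and 214 FPKM in MHPCs and 634, 1030, and 789 FPKM in the livers, and the protease *CTSB* had 357, 312, and 282 FPKM and 545, 489, and 590 FPKM. Both were lower in MHPCs on both scales. The lysosomal membrane protein *CD63* had 585, 644, and 667 FPKM in MHPCs and 356, 332, and 250 FPKM in the livers, and its log2 difference of 1.03 turned to -0.29 with size factors.

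The named members with the largest difference toward liver were *CLU*, *CTSD*, *CHCHD10*, *FTL*, and *CD81*. *CLU*, a secreted chaperone of plasma, measured 385, 387, and 389 FPKM in MHPCs and 2784, 5245, and 3072 FPKM in the livers, a mean 9.56 times higher in liver. *CHCHD10*, a protein between the mitochondrial membranes, had 308, 283, and 325 FPKM in MHPCs and 943, 930, and 1009 FPKM in the livers. *CD81*, a tetraspanin of the cell surface, had 252, 276, and 257 FPKM and 667, 552, and 584 FPKM. The log2 differences of these 5 genes ran from -3.19 to -1.19 as deposited and from -4.51 to -2.51 with size factors. With quantile normalization *FTL* moved to -0.32, and the other 4 ran from -2.73 to -1.36. Farther out lay 2 members without a symbol. ENSCJAG00000013062 had 154, 279, and 260 FPKM in MHPCs and 6673, 3134, and 5480 FPKM in the livers, and ENSCJAG00000012662 had 281, 317, and 347 FPKM and 2948, 7607, and 5574 FPKM.

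Named members with a large difference toward MHPCs included *ANXA2*, *FN1*, *CST3*, and *HSPA8*. *ANXA2*, an annexin that binds membranes and plasminogen activators, measured 1694, 1764, and 1924 FPKM in MHPCs and 154, 239, and 102 FPKM in the livers, a mean 10.9 times higher in MHPCs. *FN1*, the matrix protein fibronectin that hepatocytes also secrete into plasma, measured 1471, 1615, and 1243 FPKM in MHPCs and 267, 133, and 182 FPKM in the livers. *CST3*, a secreted inhibitor of cysteine proteases, measured 1085, 1544, and 1522 FPKM and 287, 188, and 122 FPKM. In these 3 genes the groups lay far apart, with log2 differences of 3.52, 2.94, and 2.86 as deposited and 2.20, 1.63, and 1.55 with size factors. ENSCJAG00000011230 also lay far toward MHPCs, with 1999, 2935, and 3179 FPKM in MHPCs and 398, 160, and 143 FPKM in the livers. Since the livers are whole tissue, fewer cells of a type and less RNA per cell cannot be told apart in any of these values.

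*ACTG1*, a cytoplasmic actin, was the single member from the cytoskeleton list of 6 genes. It measured 432, 380, and 369 FPKM in MHPCs and 164, 294, and 145 FPKM in the livers. Its log2 difference of 1.03 turned to -0.28 with size factors. The 3 members with the most equal levels as deposited were ENSCJAG00000004972, ENSCJAG00000015719, and ENSCJAG00000022724, with log2 differences of -0.01, 0.02, and -0.05. With size factors they stood at -1.33, -1.30, and -1.37.

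**Figure D3:**
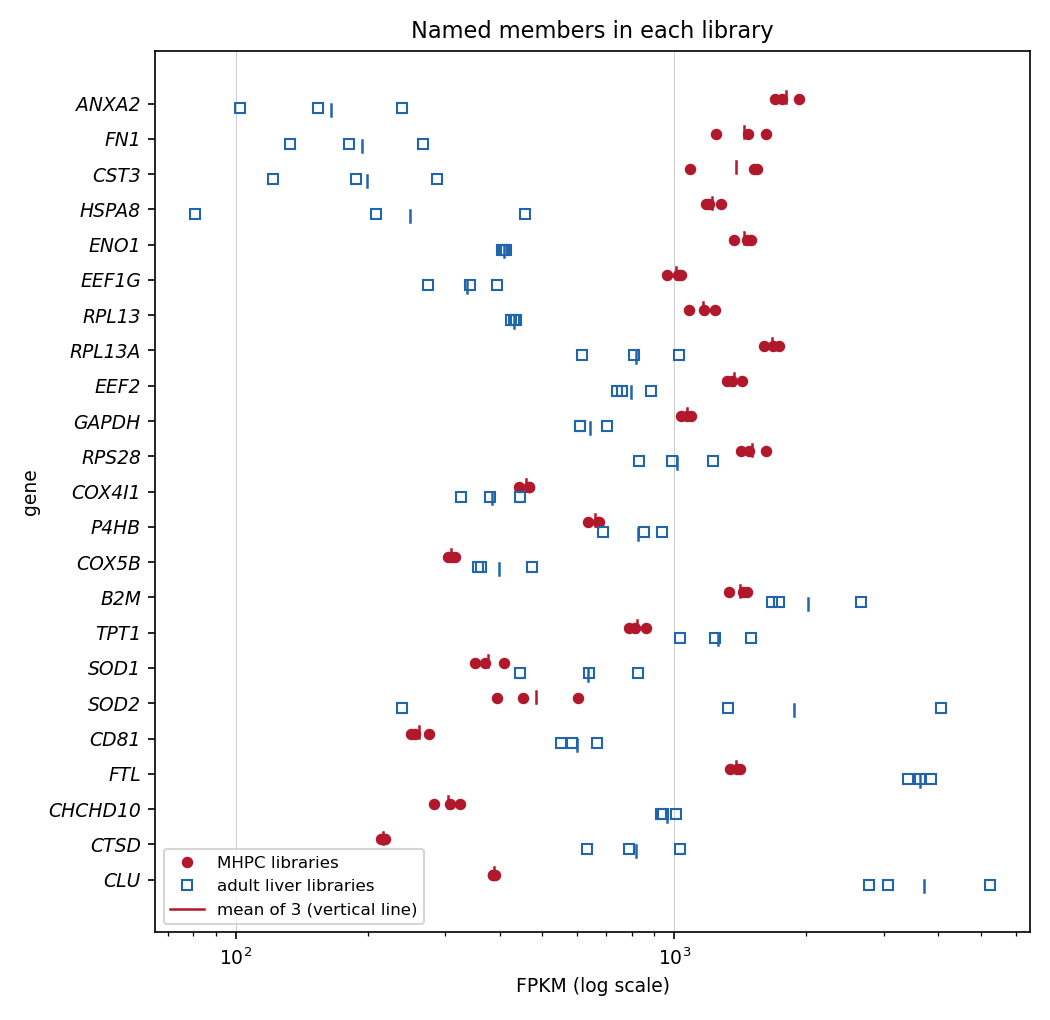
FPKM (horizontal axis, log scale) of 23 named members in each of the 3 MHPC libraries (red circles) and 3 adult livers (blue squares), ordered by log2 difference, with a vertical line at each group mean. The MHPC values of most genes lie close together, with *CLU* at 385 to 389 FPKM, whereas *SOD2* in the livers runs from 239 to 4049 FPKM.

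The median member had a smaller spread among livers than the median gene of the other sets, and a few members had large differences in single livers. The median SD of log2(FPKM + 1) among the 3 livers was 0.24 for the members, 0.31 for all genes tested, 0.27 for genes abundant in MHPCs only, and 0.48 for genes abundant in liver only. Values differed 2-fold or more between livers for 29 members (15.1%), against 36.2% of all genes tested, 27.6% of genes abundant in MHPCs only, and 45.5% of genes abundant in liver only. The lowest read count of a member in any library was 122, a counting error of 9.05%. In MHPCs the median SD was 0.09 for the members and 0.12 for all genes tested, and 4 members (2.08%) differed 1.5-fold or more, against 16.1% of all genes tested. Genes abundant in MHPCs only had a median SD of 0.08 and a share of 1.62%, both below those of the members. Without MHPC 3 the median SD of the members was 0.059. The largest spread in MHPCs was that of ENSCJAG00000036640, with 162, 357, and 184 FPKM. It is also the shortest member, at 102 bases, and its liver values of 167, 165, and 161 FPKM were among the 3 steadiest. These spreads come from the libraries that the rule used and are given without a test.

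**Figure D4:**
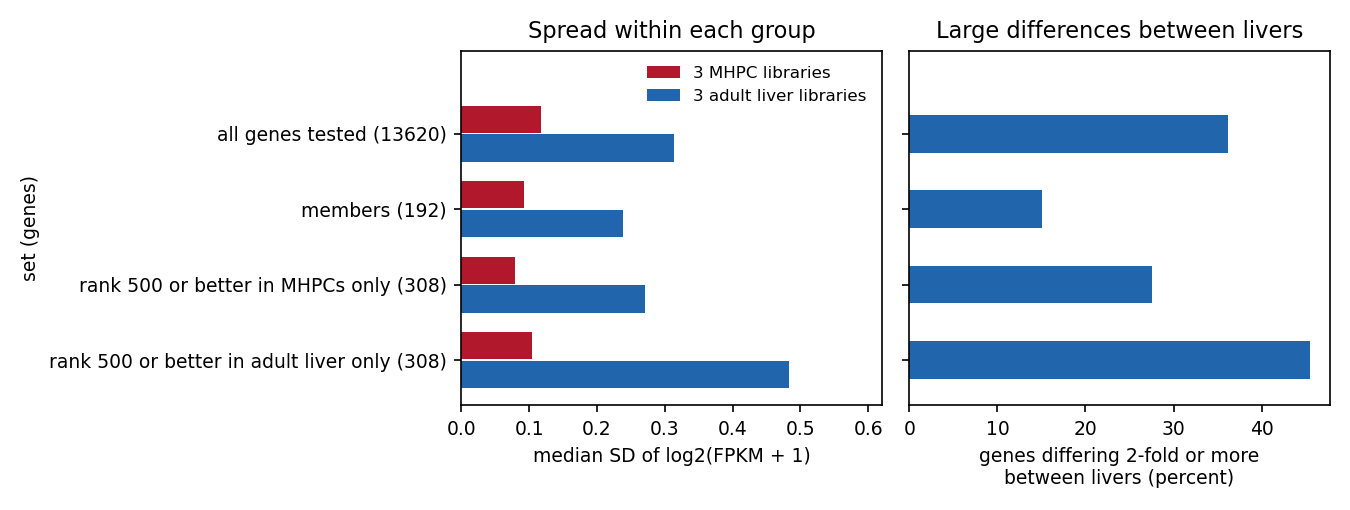
Left, median SD of log2(FPKM + 1) among the 3 MHPC libraries (red) and the 3 adult livers (blue) for all genes tested, the members, and the genes abundant in 1 group only. Right, percentage of genes whose highest liver was 2-fold or more above the lowest, which is 15.1% for the members and 45.5% for genes abundant in liver only.

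*SOD2*, the mitochondrial superoxide dismutase that inflammatory cytokines induce, measured 395, 604, and 453 FPKM in MHPCs and 239, 4049, and 1327 FPKM in the livers, a 16.9-fold range among livers. Its log2 difference was -1.19, -0.24 without liver 2, and -2.28 without liver 1, which lay below all MHPC libraries. The acute phase gene *SAA1*, which is no member and was chosen after its values were seen, was at 637, 78809, and 22531 FPKM in livers 1, 2, and 3 and at 3.57 to 5.23 FPKM in MHPCs. Of the leukocyte markers only *PTPRC* had an identifier, and it was at 8.46, 20.5, and 5.52 FPKM in these livers and at 0 in MHPCs. The endothelial markers *PECAM1*, *VWF*, and *STAB2* summed to 37.1, 52.6, and 39.2 FPKM in the livers. *PECAM1* and *VWF* were highest in liver 2, whereas *STAB2* was lowest there, with 10.6, 3.32, and 5.91 FPKM. The part of these in the values of liver 2 was not tested.

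Several heat shock proteins had another order of livers. *HSPA8* was highest in liver 1, and so were *HSPB1*, a small heat shock protein, with 596, 180, and 161 FPKM, *HSP90AA1*, the inducible cytosolic HSP90, with 350, 129, and 107 FPKM, and *HSPA5*, the HSP70 of the endoplasmic reticulum, with 779, 270, and 342 FPKM. *HSP90B1*, the HSP90 of the endoplasmic reticulum, had 721, 445, and 385 FPKM in the livers and 730, 735, and 841 FPKM in MHPCs, and its log2 difference of 0.62 turned to -0.69 with size factors. In MHPCs *HSPB1* measured 990, 832, and 940 FPKM, *HSP90AA1* 792, 1016, and 908 FPKM, and *HSPA5* 731, 682, and 694 FPKM. Of the 9 chaperone members, 5 were highest in liver 1, 1 in liver 2, and 3 in liver 3, and with size factors 5 were highest in liver 1. The share of all members that were highest in liver 1 was 61.98%, so the 5 of 9 do not set the list apart. *HSPB1*, *HSP90AA1*, and *HSPA5* were chosen after their values were seen. Over the 29 members that differed 2-fold or more between livers, 16 were highest in liver 1, 13 in liver 2, and none in liver 3. Without liver 1 the number was 10 and without liver 2 it was 9, so that both livers carried most of these differences.

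**Figure D5:**
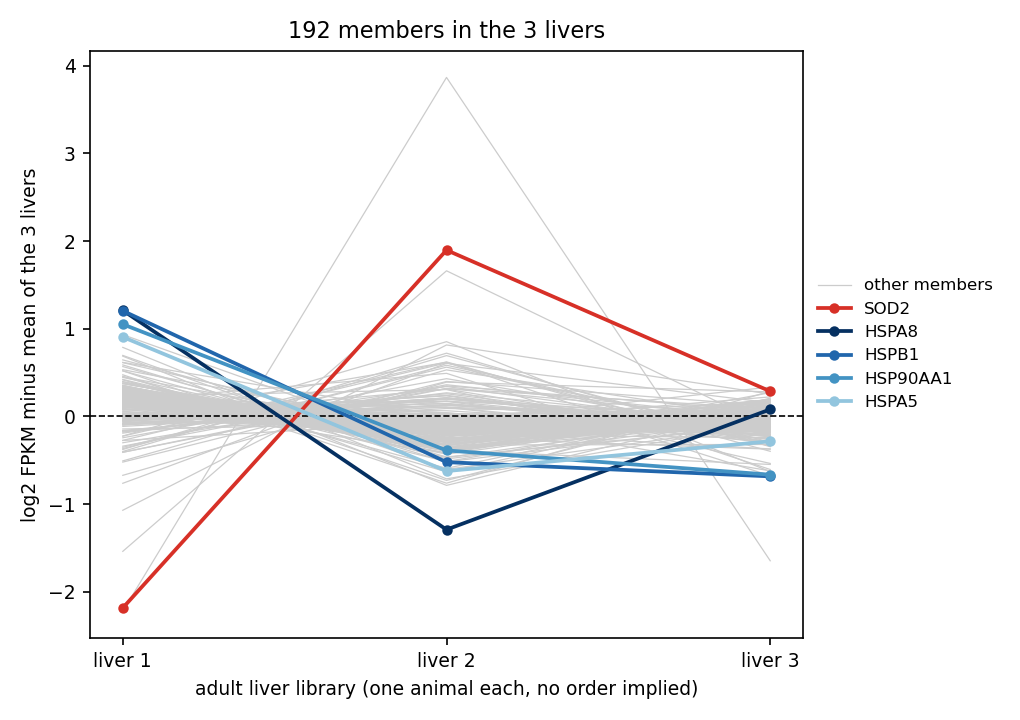
Log2 FPKM of each of the 192 members in the 3 adult livers, relative to the mean of the 3 log2 values; grey lines join the values of a gene, and coloured lines mark 5 genes. *SOD2* is highest in liver 2, where it reaches 4049 FPKM, whereas *HSPA8*, *HSPB1*, *HSP90AA1*, and *HSPA5* are highest in liver 1.

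The members were short genes. Their median length, as recovered from the FPKM values, was 796.5 bases, with quartiles of 518.5 and 1221.5, against 1741 bases for all genes tested, 1383 bases for genes abundant in MHPCs only, and 1394 bases for genes abundant in liver only. The range was wide, from 102 bases to the 7394 bases of *FN1*. When the tested genes were divided by length into 5 bins of 2724 genes, the bins held 117, 43, 21, 8, and 3 members in order of increasing length. FPKM divides by length, and the same number of reads gives a short gene a higher value.

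MHPC 3 was the highest MHPC library for 148 of the 192 members (77.1%), against 30.9% of all genes tested and 58.1% of genes abundant in MHPCs only. The excess was small, with a median ratio of 1.05 to the group mean. The share of tested genes that were highest in MHPC 3 was 40.0%, 38.9%, 32.6%, 26.7%, and 16.6% in the same order of bins, and the part of gene length in the members' values was not tested. Liver 1 was the highest liver for 119 members (61.98%), against 40.6% of all genes tested, 45.8% of genes abundant in MHPCs only, and 52.3% of genes abundant in liver only. With size factors liver 1 was highest for 87 members (45.3%), liver 2 for 96 (50%), and liver 3 for 9 (4.69%). On that scale the shares of all genes tested were 35.3%, 37.2%, and 27.5% for livers 1, 2, and 3. They were 33.4%, 58.4%, and 8.12% for genes abundant in MHPCs only, and 48.4%, 37.3%, and 14.3% for genes abundant in liver only.

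How well the rule held in single libraries was read from each library on its own. The numbers of members within the 500 most abundant genes were 185, 189, and 188 in MHPCs and 176, 177, and 181 in the livers, and 149 members were within them in all 6 libraries. When the rule was applied to 2 MHPC libraries and 2 livers, 181 to 195 genes were chosen over the 9 ways to leave out 1 library of each group. Of these genes, 85.3% to 89.2% ranked 500 or better in both libraries left out. In the MHPC library left out the share was 95.8% to 98.4%, but that library came from the same clone as those that chose the genes. In the liver left out, which came from another animal, the share was 88.6% to 91.3%.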

How the data were processed

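Libraries of 3 MHPC samples and 3 adult livers were read from a single end. The deposited table, made by the authors, gives FPKM by Ensembl identifier. The submitters' processing notes name TopHat2 2.0.9, Bowtie2 2.0.6, and HTSeq 0.6.1. The genome build and annotation are not given in the sources used here. Symbols came from an identifier table that matched 12816 of the 32323 identifiers. All 6 columns were used.

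Genes were ranked by the mean FPKM of each group. Differences were fitted with limma 3.58.1 (R 4.3.3, eBayes with trend) on log2(FPKM + 1) over 13620 genes, with Benjamini-Hochberg adjustment. The pseudocount of 1 slightly understates the differences of low genes. Reads, lengths, and totals were recovered as the whole numbers that give the deposited values, within a tolerance of 0.02 reads. A recovered length can be too short by a common factor, so lengths and reads are lower bounds. Over the members, the median read count was 2746.5 (counting error 1.91%). Recovery and fit were tested on simulated data. Chi-square per degree of freedom over the members ranged from 36.6 to 39.3 for pairs of MHPC libraries and from 211.8 to 875.9 for pairs of livers, where sampling gives 1, so no library was a copy.

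The members and gene lists were chosen with earlier results of these data known. Named were the 10 members with the best worse rank, the 5 largest differences each way (2 each way with identifiers included), the 3 most equal, the 3 most and 3 least variable among livers and 1 each among MHPCs, 3 on each side of the limit, and up to 4 per list.

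The alternatives were other scalings, filters, pseudocounts, and rank limits, the replicate number as a block, voom on recovered reads, and each library left out. Some items that the naming rule picked are not reported here.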

Additional observations from a re-analysis of the deposited data

How the results depend on the processing

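The direction of many members depended on the scaling. Of the 192 members, 109 were higher in MHPCs as deposited and lower with size factors, and 55 were higher with size factors. With median-of-ratios size factors 19 members were called higher and 88 lower in MHPCs, with a median log2 difference of -0.35. Limma-voom on recovered reads with these factors gave 21, 88, and -0.36. As deposited the values were 139, 16, and 0.96, and quantile normalization gave 123, 22, and 0.82. With both size factors and voom, named genes called higher as deposited turned to lower values: *RPL35* -0.45, *RPS28* -0.73, *CALR* -0.75, *RPL13A* -0.26, *EEF2* -0.53, *TPI1* -0.19, *RPLP0* -0.23, *EEF1B2* -0.66, *ATP5H* -0.93 and -0.94, *GAPDH* -0.58, *GPI* -0.27, *ACTG1* -0.28, *HSP90B1* -0.69 and -0.70, *PRDX1* -0.48, and *CD63* -0.29. The list gives directions and not calls, and some of these differences were small beside their SE. With size factors the SE was 0.34 for *ACTG1*, 0.26 for *GPI*, 0.20 for *RPLP0*, and 0.21 for *CD63*, and *ACTG1* was not called. The cause was not tested.

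With each library left out, 121 to 147 members were called higher and 14 to 19 lower, with medians of 0.87 to 0.99, and the rule chose 184 to 196 members. The number of members that differed 2-fold or more between livers, 29 in all 3, was 9 to 25 with a liver left out, a comparison added after the data were seen. A limit of rank 250 gave 84 members and of 1000 gave 444. As shares of reads the members took 14.3% in MHPCs and 8.47% in liver.

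With the replicate number as a block, 133 members were called higher and 16 lower, with a median of 0.96. The deviations of same-numbered libraries correlated at -0.0127, -0.0019, and -0.0746, so the numbers were not taken as pairs.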
